A study of Homo sapiens with 7 samples.

Results

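The HOX cluster genes were all genes of the deposited table whose symbol is HOXA, HOXB, HOXC or HOXD followed by a number, which gave 39 of 19978 genes. They comprised 11 genes of the HOXA cluster on chromosome 7, 10 of HOXB on chromosome 17, 9 of HOXC on chromosome 12 and 9 of HOXD on chromosome 2. Transcripts were measured by poly(A) RNA sequencing of HEK-293 cells, an immortalized line from human embryonic kidney. The study compared 3 groups of cells grown for 48 h, namely control cells in medium of pH 7.4 with DMSO (2 samples), acidosis cells in HCl-acidified medium of pH 6.6 with DMSO (3 samples) and SRPIN340 cells in medium of pH 7.4 with 10 µM SRPIN340 in DMSO (2 samples). SRPIN340 inhibits SRPK, the kinases that phosphorylate serine/arginine-rich splicing factors, and DMSO is its solvent, present in all groups. One passage of the sample labels writes the inhibitor as SRPIN 350, and the other labels write SRPIN340. All samples came from 1 immortalized line, so they show no variation between donors or kidney cell types.

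HOX genes encode homeodomain transcription factors that specify position along the head-to-tail axis of the embryo, and in limbs and the urogenital tract. Each cluster is a row of genes copied from a common ancestral row, so a paralog number marks counterparts between clusters, and low numbers (the 3' end of a cluster) act towards the head and high numbers (the 5' end) towards the tail. Polycomb complexes keep the clusters silent where they are not used, Trithorax-type (MLL) complexes keep them active, and kidney cells of the embryo are known for expressing posterior HOX genes, of which the paralog 11 genes are needed for the metanephric kidney to form.

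The homeobox, the stretch of DNA that encodes the DNA-binding homeodomain, is the part the members share. It held 180 bases in each member and lay within one exon. The 42 pairs with the same paralog number had a median of 81.7% identical homeobox bases, with a range of 69.4% to 90.6%, against a median of 60.6% in the 699 pairs with different numbers. The paralog 13 homeoboxes are shown because these counterparts took different courses in acidosis. HOXB13 was identical to HOXA13, HOXC13 and HOXD13 at 69.4%, 80.0% and 70.0% of bases. Capitals mark codons 42 to 58, which encode the third helix of the homeodomain, the helix that enters the major groove of DNA. The sequences were read 5' to 3' on the coding strand of GENCODE transcripts on GRCh38, at chr7:27198222-27198401 (minus strand), chr17:48726820-48726999 (minus), chr12:53945041-53945220 (plus) and chr2:176094524-176094703 (plus).
HOXA13: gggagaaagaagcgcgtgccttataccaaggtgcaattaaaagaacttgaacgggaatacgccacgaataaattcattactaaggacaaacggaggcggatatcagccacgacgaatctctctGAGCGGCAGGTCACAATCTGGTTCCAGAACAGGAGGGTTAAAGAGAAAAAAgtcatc
HOXB13: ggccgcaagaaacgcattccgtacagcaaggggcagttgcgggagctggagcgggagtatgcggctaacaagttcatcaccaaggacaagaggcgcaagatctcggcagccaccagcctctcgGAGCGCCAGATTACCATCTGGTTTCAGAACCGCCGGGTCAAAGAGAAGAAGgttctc
HOXC13: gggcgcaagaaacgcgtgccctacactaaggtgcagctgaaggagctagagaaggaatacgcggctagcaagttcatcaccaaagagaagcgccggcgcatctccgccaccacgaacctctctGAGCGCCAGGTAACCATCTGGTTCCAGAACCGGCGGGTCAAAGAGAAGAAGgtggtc
HOXD13: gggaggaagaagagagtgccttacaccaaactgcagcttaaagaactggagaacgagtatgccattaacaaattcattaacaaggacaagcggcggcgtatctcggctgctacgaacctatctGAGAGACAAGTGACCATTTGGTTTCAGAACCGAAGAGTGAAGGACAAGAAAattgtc

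Promoter windows from RefSeq (GRCh38.p14), from 250 bases before to 50 bases after an annotated transcript start, matched 20 members with 27 windows. HOXA5, HOXB2, HOXB3, HOXB4, HOXB5, HOXB6, HOXB7, HOXB8, HOXB9, HOXB13, HOXC6, HOXC8, HOXC9, HOXC10, HOXC11, HOXC12, HOXC13 and HOXD9 had no entry. The windows below belong to the 4 members with an entry that passed both limits of the test in acidosis, HOXA6, HOXD8 and HOXD12 with lower levels and HOXD11 with a higher level. Capitals mark 3 motifs on either strand, the CCAAT box, the TATA box in its form TATAAA, and the GC box in its form GGGCGG, which share no bases in these windows. The windows lie at chr7:27147725-27148024 (minus strand), chr2:176129455-176129754 (plus), chr2:176099545-176099844 (plus) and chr2:176107030-176107329 (plus).
HOXA6: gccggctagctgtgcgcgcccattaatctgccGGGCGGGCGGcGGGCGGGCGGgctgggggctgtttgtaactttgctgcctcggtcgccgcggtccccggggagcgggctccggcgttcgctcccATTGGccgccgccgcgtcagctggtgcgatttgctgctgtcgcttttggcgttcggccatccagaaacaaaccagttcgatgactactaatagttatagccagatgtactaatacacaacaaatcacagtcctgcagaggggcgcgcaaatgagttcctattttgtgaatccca
HOXD8: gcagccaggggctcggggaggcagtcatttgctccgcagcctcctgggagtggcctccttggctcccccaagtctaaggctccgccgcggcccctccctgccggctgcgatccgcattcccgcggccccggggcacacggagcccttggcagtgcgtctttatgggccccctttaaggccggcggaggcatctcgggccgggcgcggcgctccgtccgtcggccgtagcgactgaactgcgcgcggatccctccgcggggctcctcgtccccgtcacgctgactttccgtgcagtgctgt
HOXD12: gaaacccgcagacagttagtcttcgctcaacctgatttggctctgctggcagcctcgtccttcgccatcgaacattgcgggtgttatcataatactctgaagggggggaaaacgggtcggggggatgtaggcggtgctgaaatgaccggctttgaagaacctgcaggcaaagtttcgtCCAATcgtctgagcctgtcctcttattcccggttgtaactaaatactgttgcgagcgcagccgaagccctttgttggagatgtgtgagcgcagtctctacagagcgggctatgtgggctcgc
HOXD11: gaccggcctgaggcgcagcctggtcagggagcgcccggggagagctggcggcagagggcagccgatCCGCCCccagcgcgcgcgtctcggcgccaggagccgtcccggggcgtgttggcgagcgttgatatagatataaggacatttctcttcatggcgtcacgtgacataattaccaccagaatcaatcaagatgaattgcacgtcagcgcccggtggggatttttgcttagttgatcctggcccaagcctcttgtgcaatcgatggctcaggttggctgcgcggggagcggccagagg

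The HOXA6 window held the CCAAT box and the GC box, the HOXD12 window a CCAAT box, the HOXD11 window a GC box, and the HOXD8 window none of the 3 motifs. Over all 27 HOX windows, which are not independent since HOXA3 has 7 and HOXC4 and HOXC5 share one, 66.7% held a CCAAT box against 34.6% of 35116 promoter windows of all genes. The TATA box was in 18.5% against 11.5%, the GC box in 48.1% against 45.0%, and TAAT, the core that homeodomains bind, in 77.8% against 50.2%. The median number of CpG dinucleotides was 22 in the HOX windows and 14 in all windows. These are letter matches and do not show binding.

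HEK-293 cells expressed nearly the whole HOX repertoire. In control cells, 37 of 39 members had a mean of at least 1 CPM (counts relative to the TMM-scaled library total) and 28 had at least 10 CPM. HOXB1, a gene of the fourth hindbrain segment, had an estimated count of at most 1.27 in any library and was not tested, which left 38 members among 14863 tested genes. Counts of 3 corresponded to between 0.105 and 0.275 CPM depending on the library. Per kilobase of canonical transcript, the scale used for comparing genes, the tested members in control cells ran from 0.279 CPM per kb (HOXD12) to 44.9 (HOXA10), with a median of 7.88 against 6.81 over all tested genes.

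The highest control levels belonged to posterior genes. HOXA10, a regulator of uterine and hindlimb patterning, had 44.9 ± 4.0 CPM per kb (SD, n = 2), followed by HOXD10 with 36.9 ± 1.0, HOXA9 with 30.6 ± 0.57 and HOXB9 with 27.0 ± 0.64. HOXB2, at 24.3 ± 1.1, was the highest anterior gene, and HOXC4, at 23.4 ± 2.3, the highest of its cluster. The control ranges of HOXB2 and HOXC4 overlapped, so their order was not resolved. HOXC12 (0.788 ± 0.15), HOXC5 (0.836 ± 0.33), HOXC11 (1.41 ± 0.059) and HOXA2 (1.55 ± 0.013) were low. The paralog 12 genes were thus among the lowest in both clusters that carry them, while their neighbour HOXD11 reached 13.4 ± 2.1.

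**Figure D1:**
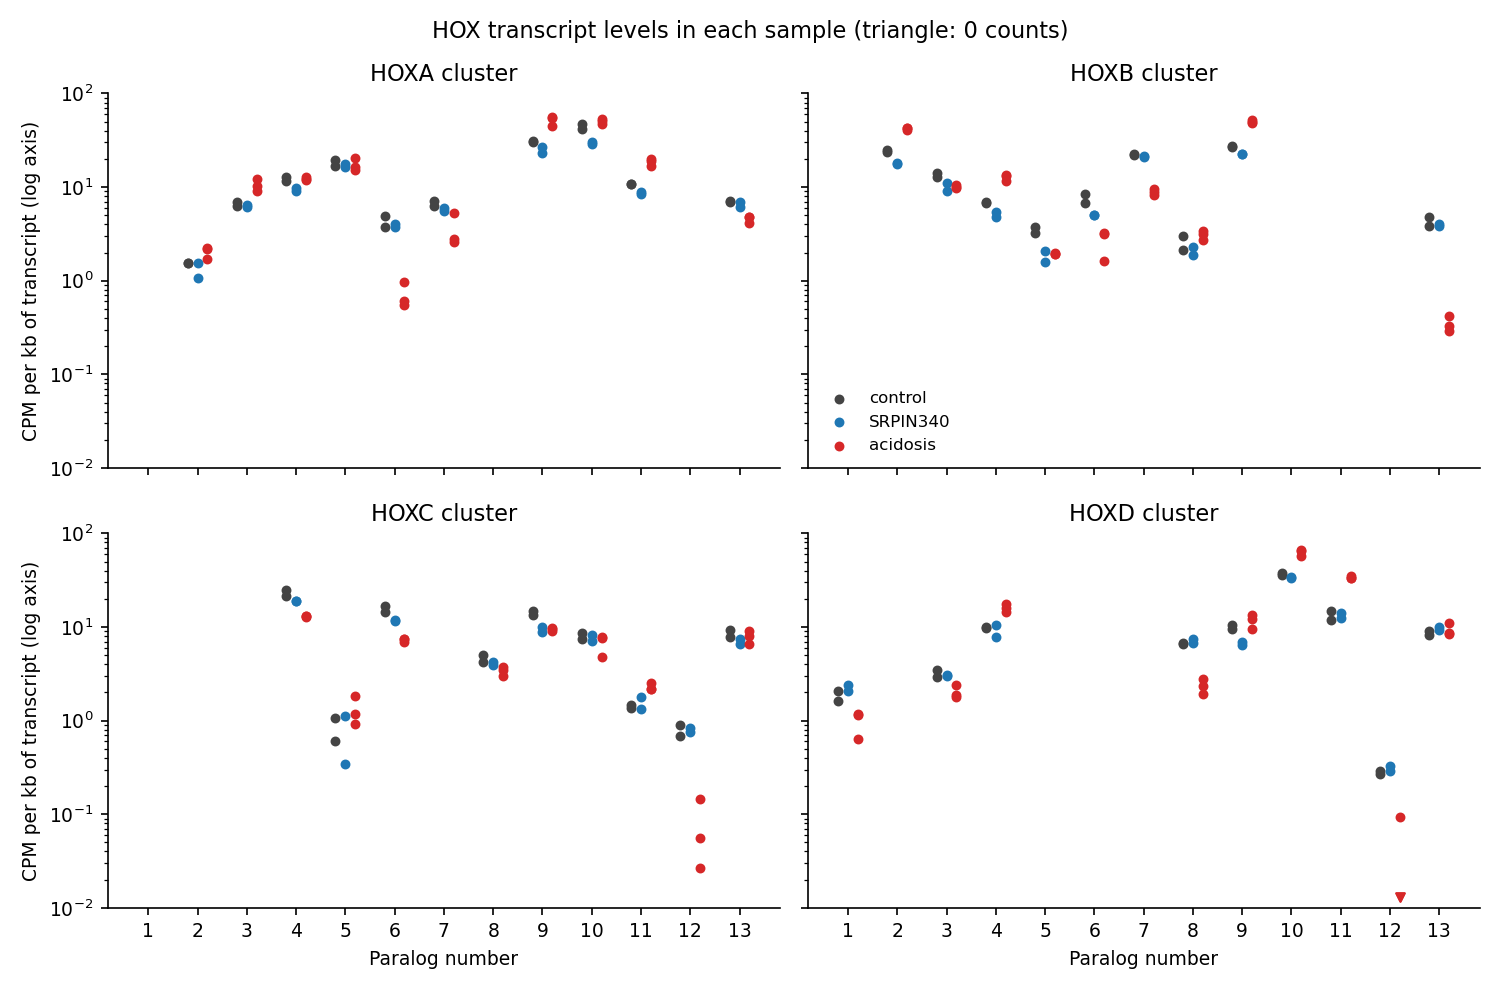
Level of HOX genes in each sample, in CPM per kb of canonical transcript on a log axis, by paralog number and cluster (control n = 2, SRPIN340 n = 2, acidosis n = 3, one point per sample). In control cells the level peaks at paralog number 10 in HOXA and HOXD, and the acidosis points of HOXA6, HOXB13, HOXC12 and HOXD12 lie far below the control points.

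Library totals ranged from 13615816 to 24110460 counts, and the TMM factors were 1.17 to 1.21 at pH 7.4 and 0.78 to 0.80 in acidosis. Scaling by total counts alone moved the median log2 fold change of all tested genes in acidosis from -0.05 to -0.63, and the changes below are relative to the TMM scale. Markers of embryonic kidney and of the HEK-293 line reached at least 1 CPM for 10 of 11 genes in control cells. Their summed level was 1637.2 to 1699.9 CPM in control, 1628.1 to 1690.0 in SRPIN340 and 3761.4 to 3777.6 in acidosis, most of it VIM. The single markers went both ways in acidosis, with log2 fold changes from -1.93 to 1.65 (median 0.17). Of the 10 tested, 5 were higher and 3 lower at an adjusted p under 0.05 in edgeR. A list of 14 markers of other cell types summed to 50.7 to 51.9 CPM in control, 57.5 to 64.8 in SRPIN340 and 100.7 to 107.6 in acidosis, with COL1A1 and LUM carrying most of it and CD3E at 0 in all libraries. Of its 8 tested genes, 6 were higher and 1 lower in acidosis at that limit (median log2 1.34), against 32.5% and 34.2% of all tested genes. With total count scaling the fibroblast marker COL3A1 was at log2 -1.54, whereas COL1A1 and LUM were at 0.44 and 1.09. The part of these shifts in the HOX values was not tested, and in such bulk samples fewer cells of a type and less RNA per cell cannot be told apart. The p-values measure the spread between these samples.

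Acidosis changed HOX transcripts in both directions. Below, a gene rose or fell if its adjusted p in edgeR's quasi-likelihood test was under 0.05, and it was called if its log2 fold change also exceeded 1 in size. Of 38 tested members, 10 rose and 17 fell, and 1 was called higher (HOXD11) and 8 lower (HOXB13, HOXC12, HOXD12, HOXA6, HOXD8, HOXB6, HOXB7 and HOXC6). Over all tested genes 32.5% rose and 34.2% fell, and 14.4% were called higher and 19.1% lower. Among the members these shares were 26.3%, 44.7%, 2.63% and 21.1%, and the members' median log2 fold change of -0.09 lay near the -0.05 of all genes. With total count scaling 3 members rose, 24 fell, none was called higher and 16 were called lower. On that scale the median log2 fold change was -0.66 in the members and -0.63 in all tested genes, 72% of which were below 0. Of all tested genes, 815 were then called higher and 5202 lower, and the shares that rose or fell are not given. The 10 members that rose kept values above 0 on that scale, and HOXB2, HOXB9 and HOXD11 still passed.

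**Figure D2:**
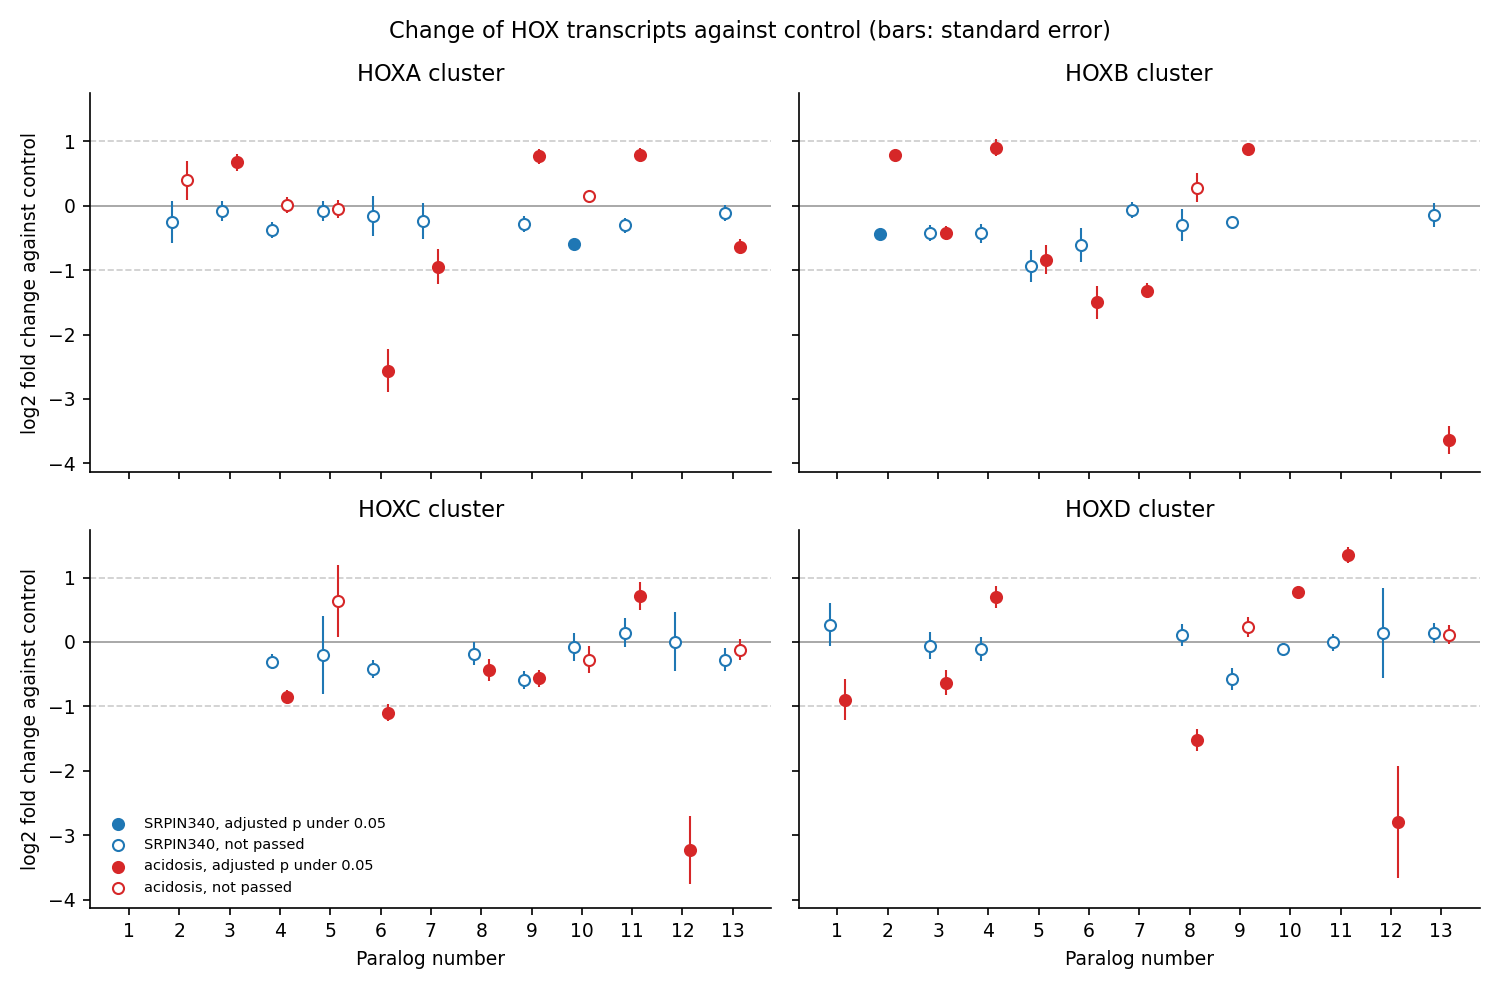
Log2 fold change of HOX genes against control (y axis) by paralog number (x axis) and cluster, for SRPIN340 and acidosis, with bars for the standard error and dashed lines at the call limit of 1. Filled points had an adjusted p under 0.05, and in acidosis paralogs 6, 7 and 12 lie below 0 and paralog 11 above 0 in every cluster that has them, while SRPIN340 points stay within 1 of 0.

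HOXB13, the gene at the tail end of the HOXB cluster and a regulator of prostate and tail development, had the greatest fall among the members. It had 11.7 and 14.6 CPM in control, 11.6 and 12.1 in SRPIN340, and 0.891, 1.01 and 1.29 in acidosis. The acidosis samples lay far below all others, and the log2 fold change was -3.64 ± 0.22 (SE, adjusted p = 4.94e-07). The other paralog 13 genes, which pattern digits and external genitalia (HOXA13, HOXD13) or hair and nails (HOXC13), did not take the same course. HOXA13 had 35.7 and 35.1 CPM in control, 34.7 and 30.8 in SRPIN340, and 20.7, 23.8 and 24.2 in acidosis, a fall of log2 -0.63 ± 0.12 (adjusted p = 8.17e-04). HOXC13 and HOXD13 did not pass in acidosis, with log2 values of -0.12 ± 0.16 and 0.11 ± 0.15. None of the 4 transcripts, whose homeobox sequences are given above, shared 31-base words with another HOX gene (0.0% of words in each).

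Both paralog 12 genes fell from low levels. They entered the test only through the samples at pH 7.4, since their acidosis counts alone did not reach the expression filter. For them a fall in acidosis was therefore the only call open, and the calls are no independent support. HOXC12 had 2.23 and 2.91 CPM in control, 2.69 and 2.47 in SRPIN340, and 0.475, 0.184 and 0.086 in acidosis. All acidosis samples lay below all samples at pH 7.4, and the log2 fold change was -3.23 ± 0.53 (adjusted p = 4.10e-04). The size of this HOXC12 fall rested on few counts, estimated at 7.6, 1.91 and 0.96 in acidosis replicates 1, 2 and 3. Replicates 2 and 3 were thus under 3 counts. HOXD12 had 0.684 and 0.737 CPM in control, 0.737 and 0.835 in SRPIN340, and 0.238, 0 and 0 in acidosis. Its log2 fold change of -2.79 ± 0.87 (adjusted p = 0.0174) rested on few counts, and the call was lost without control replicate 1 (adjusted p = 0.0557), without control replicate 2 (0.0647) and with a replicate block (0.059).

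The 3 paralog 11 genes, required together for the metanephric kidney, rose. HOXD11 had 20.4 and 25.4 CPM in control, 24.2 and 21.5 in SRPIN340, and 60.4, 57.5 and 57.4 in acidosis. All acidosis samples exceeded all others by more than the spread within groups, with a log2 fold change of 1.35 ± 0.12 (adjusted p = 7.36e-06) that became 0.78 with total count scaling. HOXA11 rose from 28.6 and 28.9 CPM in control to 51.2, 45.2 and 53.0 in acidosis, with 23.8 and 22.8 in SRPIN340 (acidosis log2 0.79 ± 0.11, adjusted p = 1.08e-04). On the annotation, 27.2% of HOXA11 exon bases overlap HOXA11-AS on the opposite strand. HOXC11, at 4.47 and 4.74 CPM in control and 7.14 to 8.31 in acidosis, rose by log2 0.71 ± 0.21, and did not pass without control replicate 1 (adjusted p = 0.0795) or 2 (0.058). HOXD11 shares 25.5% of its 31-base words with transcripts of its neighbour HOXD10, so part of its estimated count depends on how the quantification split shared reads. HOXD10, a regulator of lumbar motor neurons, had 67.1 and 64.5 CPM in control, 61.3 and 60.2 in SRPIN340, and 119, 103 and 116 in acidosis, and rose by log2 0.78 ± 0.09 (adjusted p = 3.13e-05). HOXA10 had 107 and 121 CPM in control and 128, 119 and 134 in acidosis, groups that overlapped, and did not pass (log2 0.16 ± 0.09). HOXC10, at 14.7 and 17.2 CPM in control, ranged from 9.56 to 15.3 in acidosis and did not pass.

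All 3 paralog 6 genes were called lower. HOXA6 had 3.75 and 4.81 CPM in control, 3.98 and 3.68 in SRPIN340, and 0.950, 0.551 and 0.602 in acidosis (log2 -2.56 ± 0.33, adjusted p = 8.97e-05). HOXB6 had 11.5 and 14.3 CPM in control, 8.37 and 8.50 in SRPIN340, and 5.46, 5.33 and 2.75 in acidosis (log2 -1.50 ± 0.26, adjusted p = 5.51e-04). HOXC6 had 27.9 and 23.6 CPM in control, 19.1 and 19.4 in SRPIN340, and 11.4, 12.4 and 12.3 in acidosis (log2 -1.10 ± 0.13, adjusted p = 4.57e-05). In each of the 3 genes every acidosis sample lay below every sample at pH 7.4. The HOXC6 call was lost without control replicate 1, where its log2 value was -0.98 and still passed the p limit. On the annotation, 39.3% of HOXA6 exon bases overlap the antisense HOXA-AS3, HOXB6 shares 9.1% of its 31-base words with HOXB3, and HOXC4 and HOXC6 have 484 exon bases in common.

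Of the 8 members with paralog numbers 5, 7 and 8, which act in the neck and trunk of the embryo, 5 fell and 3 did not pass. HOXB7 had 30.6 and 29.8 CPM in control, 29.1 and 28.6 in SRPIN340, and 11.2, 12.9 and 12.1 in acidosis (log2 -1.32 ± 0.12, adjusted p = 5.82e-06). HOXD8 had 17.1 and 17.6 CPM in control, 19.7 and 17.8 in SRPIN340, and 4.99, 7.25 and 6.10 in acidosis (log2 -1.52 ± 0.17, adjusted p = 3.23e-05). Both had tight, separate groups. HOXA7 fell by log2 -0.94 ± 0.27, with 5.23 and 5.60 CPM in 2 acidosis libraries and 10.6 in the third, and it passed the fold limit without that library (log2 -1.33). HOXB5 (log2 -0.84 ± 0.23) and HOXC8 (-0.43 ± 0.16) also fell, whereas HOXA5 (-0.05 ± 0.14), HOXC5 (0.64 ± 0.56) and HOXB8 (0.28 ± 0.23) did not pass. Of these falls, HOXA7 did not pass without control replicate 1 (adjusted p = 0.0671), HOXB5 without control replicate 2 (0.0664), and HOXC8 without control replicate 1 (0.229), acidosis replicate 1 (0.0596) or 3 (0.0957), or SRPIN340 replicate 1 (0.0618) or 2 (0.0629), nor with a block (0.142) or DESeq2 (0.0997). For HOXA7, 62.5% of exon bases overlap HOXA-AS3 on the opposite strand, and 24.4% of HOXD8 exon bases overlap HOXD-AS2, while for HOXC5 66.8% of 31-base words occur in another annotated gene. The strand setting of the quantification is not given in the sources used here, so antisense reads cannot be told apart.

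**Figure D3:**
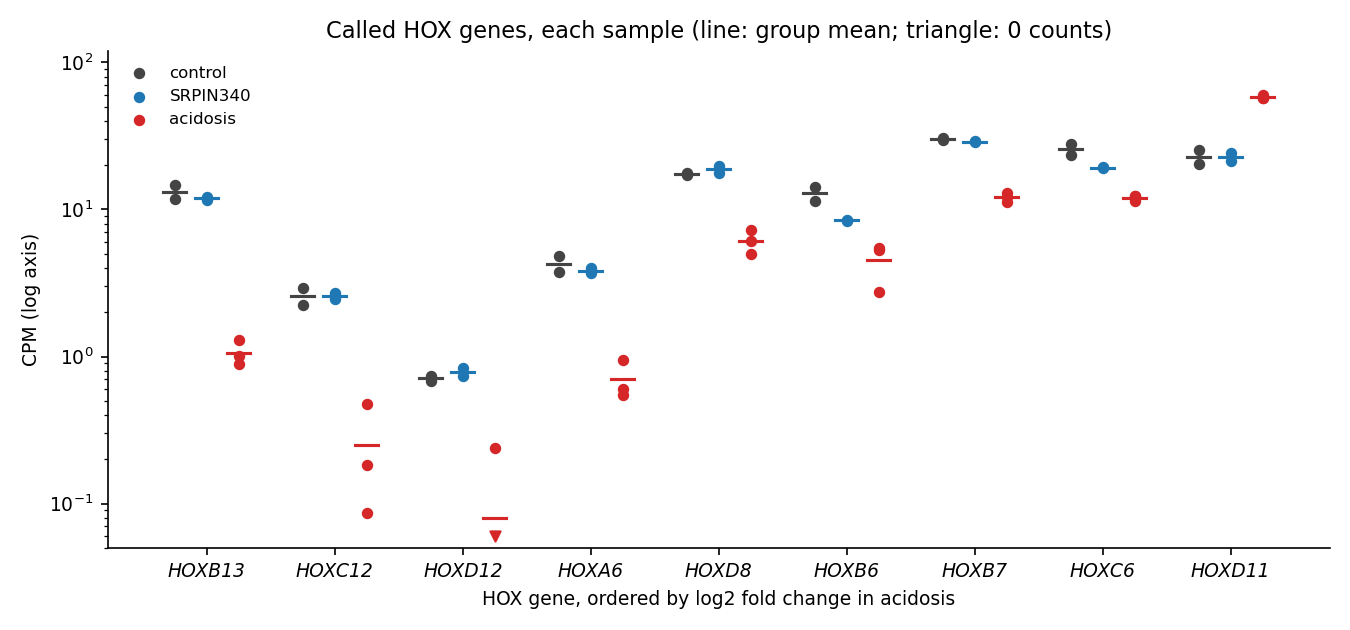
CPM on a log axis of the 9 HOX genes called in acidosis against control, one point per sample (control n = 2, SRPIN340 n = 2, acidosis n = 3), with a line at each group mean and a triangle for samples with 0 counts. The acidosis points lie below all pH 7.4 points for 8 genes and above them for HOXD11.

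Paralogs 4 and 9 split between clusters. HOXB9 had 68.7 and 71.1 CPM in control, 59.1 and 58.2 in SRPIN340, and 127, 124 and 135 in acidosis (log2 0.88 ± 0.08, adjusted p = 5.27e-06). HOXA9, a driver of blood progenitor growth in leukaemia, had 63.9 and 62.2 CPM in control, 47.4 and 56.0 in SRPIN340, and 116, 93.1 and 113 in acidosis (log2 0.77 ± 0.12, adjusted p = 2.32e-04). HOXC9, a determinant of thoracic motor neurons, fell instead, by log2 -0.56 ± 0.13, and HOXD9 did not pass (0.23 ± 0.16). HOXB4, which promotes renewal of blood stem cells, and HOXD4 rose by log2 0.90 ± 0.13 and 0.69 ± 0.17. HOXC4 had 37.1 and 42.7 CPM in control, 32.4 and 32.2 in SRPIN340, and 21.6, 22.3 and 22.4 in acidosis (log2 -0.85 ± 0.11, adjusted p = 6.47e-05). HOXA4 did not pass (0.01 ± 0.12). For HOXA9, 18.1% of 31-base words occur in annotated genes that are not members, most of all in ENSG00000257184. That gene lies on the same strand and shares 397 exon bases with HOXA9 and 368 with HOXA10. Of HOXA9 exon bases, 13.9% overlap HOXA10-AS on the opposite strand.

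Among anterior genes, which pattern the hindbrain and pharyngeal arches, HOXB2 and HOXA3 rose and HOXB3, HOXD1 and HOXD3 fell. HOXB2 had 42.3 and 39.5 CPM in control, 30.5 and 29.8 in SRPIN340, and 71.9, 68.6 and 72.1 in acidosis (log2 0.79 ± 0.09, adjusted p = 2.85e-05). HOXB3 had 47.0 and 42.2 CPM in control, 36.4 and 30.0 in SRPIN340, and 33.4, 32.0 and 34.4 in acidosis (log2 -0.42 ± 0.11, adjusted p = 0.00837). HOXA3, needed for the thymus and parathyroid, rose by log2 0.67 ± 0.14. HOXD1 and HOXD3 fell by log2 -0.90 ± 0.32 and -0.63 ± 0.20, and 52.4% of HOXD1 exon bases overlap ENSG00000279160 on the opposite strand. HOXA2 (0.40 ± 0.30) did not pass. HOXB3 did not pass without control replicate 1 (adjusted p = 0.0713), and HOXD3 without control replicate 2 (0.115) or with a block (0.0676). HOXD1 lost its pass in several fits, with an adjusted p of 0.171 without control replicate 2, 0.0516 without control replicate 1, 0.0693 without acidosis replicate 2, 0.0518 and 0.0535 without SRPIN340 replicates 1 and 2, 0.0596 with a block, 0.0583 with DESeq2 and 0.0511 with only the groups compared. On total count scaling HOXA2, HOXA4, HOXA10, HOXB8, HOXD9 and HOXD13 turned to negative values.

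By position, the central genes (paralogs 4 to 8) had the lowest median. Of 15 central genes, 2 rose and 9 fell, 5 of them called, and the median log2 fold change was -0.84. Of 7 anterior genes (paralogs 1 to 3), 2 rose and 3 fell (median 0.14), and of 16 posterior genes (paralogs 9 to 13), 6 rose and 5 fell (median 0.13). By cluster, 3 rose and 3 fell of 11 in HOXA, 3 and 5 of 9 in HOXB, 1 and 5 of 9 in HOXC, and 3 and 4 of 9 in HOXD. Beside these counts, 32.5% of all tested genes rose, 34.2% fell and 19.1% were called lower, with a median of -0.05. The differences between these classes were not tested.

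The balance between clusters shifted in acidosis. Summed over members, HOXC fell from 76.1 and 78.3 CPM per kb in control to 48.9, 51.1 and 54.2 in acidosis, and its share of all HOX signal per kb from 18.0% ± 0.1 (SD, n = 2) to 10.3% ± 0.6 (n = 3). HOXD went from 89.1 and 92.4 CPM per kb to 146.9, 129.0 and 143.2, and its share from 21.2% ± 0.2 to 27.9% ± 0.8. HOXA held 34.7% ± 0.2 in control and 35.5% ± 1.2 in acidosis, and HOXB 26.1% ± 0.2 and 26.3% ± 1.1. A few abundant members carried these sums in control cells, HOXC4 and HOXC6 in HOXC and HOXD10 and HOXD11 in HOXD, and no test was made on them. The summed levels rest on the TMM scale and were not computed with total count scaling, whereas shares within HOX do not depend on library scaling.

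Transcript features were summarised by direction. The median canonical length was 2030 bases in the 10 that rose, 2020 in the 17 that fell and 1980 in the 11 that did not pass, and the median GC content was 55.2%, 55.1% and 54.3%. Median control levels were 12.1, 6.63 and 8.49 CPM per kb, with ranges that overlapped. Across the 38 members, the log2 fold change in acidosis against control correlated with the level per kb in SRPIN340 samples, which neither group of the contrast contains (Pearson's r = 0.40, Spearman's rho = 0.33). Over all tested genes the same coefficients were 0.06 and 0.13. Genes within a cluster share libraries and neighbours, so these are descriptions.

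Few HOX genes passed the test with SRPIN340. No member was called in either direction by edgeR (0 of 38), against 0.128% called higher and 0.195% called lower over all tested genes. None passed the p limit upwards and 2 passed it downwards, against 0.767% and 1.53% of all genes. DESeq2 passed 4 members (HOXA10, HOXB2, HOXB3 and HOXC9) and called none, and 14 members had an unadjusted p under 0.05 in edgeR. The shares of all tested genes under these looser rules are not given, so these counts alone do not set HOX genes apart. HOXA10 fell from 107 and 121 CPM in control to 77.1 and 73.9 (log2 -0.60 ± 0.09, adjusted p = 0.0182), and HOXB2 from 42.3 and 39.5 to 30.5 and 29.8 (log2 -0.44 ± 0.09, adjusted p = 0.0498). The treated samples of both lay below the controls. HOXA10 did not pass without control replicate 2 (adjusted p = 0.111), SRPIN340 replicate 1 (0.156) or SRPIN340 replicate 2 (0.218), nor with a replicate block (0.074). HOXB2 did not pass without control replicate 1 (0.215) or 2 (0.155), SRPIN340 replicate 1 (0.284) or 2 (0.340), or acidosis replicate 1 (0.0673) or 3 (0.0671), nor with a block (0.130), RLE size factors (0.0505), total counts (0.0656) or no filter (0.0556). Without a control or SRPIN340 sample, that arm is 1 sample, whose spread is taken from the other groups.

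Most members had small negative values with SRPIN340. The log2 fold change was below 0 in 32 of 38 members (31 with total count scaling), with a median of -0.19, against 49.5% of all tested genes and a median of 0.00. All 11 HOXA and all 9 tested HOXB genes were below 0, with 7 of 9 in HOXC and 5 of 9 in HOXD. The most negative value was that of HOXB5 (-0.94 ± 0.25, adjusted p = 0.0861), with 6.05 and 6.95 CPM in control and 3.87 and 2.92 with SRPIN340, and HOXB6 (-0.61 ± 0.27, adjusted p = 0.276), HOXC9 (-0.59 ± 0.14) and HOXD9 (-0.58 ± 0.17) did not pass either. HOXC9 and HOXD9 passed when only the groups compared were fitted (adjusted p = 0.048 and 0.0495). The summed HOX level was 884.6 and 905.7 CPM in control, 751.4 and 734.1 in SRPIN340 and 1062.6, 985.0 and 1093.5 in acidosis. This order rests on the TMM scale. As a share of the library's total counts, the HOX sum was 0.104% and 0.107% in control, 0.0909% and 0.0887% in SRPIN340, and 0.0837%, 0.0788% and 0.0855% in acidosis, which went from the highest group to the lowest. Missing the threshold does not show that these genes were unaffected.

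Acidosis and SRPIN340 were compared with the same control samples, and the direct contrast between them avoids the shared controls. Acidosis against SRPIN340 called 6 members higher and 7 lower, against 14.9% and 19.7% of all tested genes. The higher members were HOXD11 (log2 1.36), HOXB4 (1.33), HOXB2 (1.23), HOXB9 (1.13), HOXA11 (1.10) and HOXA9 (1.06). The lower ones were HOXB13 (-3.50), HOXC12 (-3.23), HOXD12 (-2.94), HOXA6 (-2.40), HOXD8 (-1.63), HOXB7 (-1.26) and HOXD1 (-1.16). HOXA10 was higher by log2 0.75 (adjusted p = 3.81e-05). With total count scaling none of the members was called higher and 13 were called lower.

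The HOX partners and the machinery that keeps HOX states moved in both directions in acidosis. Over all tested genes 32.5% rose and 34.2% fell, and 14.4% were called higher and 19.1% lower. These are the shares to set beside the counts of each list below. Of 9 TALE cofactors (PBX, MEIS and PKNOX proteins, which bind DNA together with HOX proteins), 2 rose and 3 fell, and only MEIS2 was called, with 36.8 and 31.8 CPM in control and 10.6, 9.36 and 12.2 in acidosis (log2 -1.67 ± 0.15). Of 11 tested PRC2 Polycomb genes, 3 rose and 3 fell. The methyltransferase EZH1 (log2 1.81 ± 0.10) and the accessory factor PHF1 (2.06 ± 0.18) were called higher and the histone chaperone RBBP4 (-1.32 ± 0.06) lower, whereas EZH2 (-0.14 ± 0.11) and EED (-0.20 ± 0.12) did not pass. Of 20 PRC1 Polycomb genes, 13 rose and 6 fell, with PCGF1 (3.07 ± 0.12) and CBX6 (1.29 ± 0.10) called higher and the chromodomain gene CBX7 (-2.57 ± 0.44) lower. PCGF1 had 8.39 and 8.67 CPM in control and 76.7, 66.2 and 71.7 in acidosis.

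Of 21 MLL/COMPASS and UTX genes, 11 rose and 9 fell. KDM6B, a demethylase that removes the Polycomb mark, had 35.0 and 34.3 CPM in control and 226, 176 and 203 in acidosis (log2 2.54 ± 0.12), and the complex members PAGR1 (-2.42 ± 0.10) and ASH2L (-2.25 ± 0.25) were called lower. Of 10 CTCF and cohesin genes, which shape the loops of the clusters, 1 rose and 8 fell, with the cohesin regulators PDS5B (-2.50 ± 0.12) and WAPL (-1.001 ± 0.07) called lower and CTCF at -0.86 ± 0.11. The WAPL call was lost with DESeq2 and RLE size factors (-0.98) and with the block (-0.97). Of 16 tested retinoic acid pathway genes, 5 rose and 8 fell. Among these, CYP26B1, which degrades retinoic acid, fell by log2 -2.76 ± 0.24, ALDH1A3, which makes it, by -1.70 ± 0.21, and the receptor RXRB rose by 1.63 ± 0.15.

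Of 7 tested ParaHox and HOX-linked homeobox genes (of 13 listed), none rose and 5 were called lower, or 4 with DESeq2, RLE size factors or the block, where GBX1 lost its pass. The other 2, GBX2 (log2 -0.64) and EVX2 (1.30), did not pass. Those called lower included CDX2, a caudal-type activator of HOX genes, with 7.82 and 6.99 CPM in control and 0.713, 0.459 and 1.55 in acidosis (log2 -3.04 ± 0.36), PDX1 (-2.00 ± 0.41) and MNX1 (-1.78 ± 0.24). MEOX1 was at 0 in the 3 acidosis libraries and at least 3.45-fold lower than control, taking 3 counts per library as the floor, and the list's median was -1.78 with MEOX1 at its fitted value or at that bound. Of 10 tested axial regulators, 2 rose and 3 fell, with TBXT (-1.89 ± 0.45), a regulator of the trunk mesoderm, among those called lower. With total count scaling the medians of the PRC1 list (0.45), the MLL list (0.21) and the axial list (0.08) turned negative, at -0.12, -0.37 and -0.49. All tested genes had a median of -0.63 on that scale, with 72% below 0. On that scale 6 PRC1 genes rose and 8 fell, and 6 MLL genes rose and 12 fell. Of the PRC2 genes 3 rose and 8 fell, with EZH2 (-0.71) and EED (-0.77) among those that fell. The genes named above kept their signs, but CBX6 (0.71) lost its call, and CTCF (-1.44) and GBX2 (-1.21) were called lower.

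Of 23 tested genes flanking the clusters, the 3 nearest on each side, 13 rose and 3 fell (median log2 0.43). Of all tested genes, 32.5% rose and 34.2% fell. With total count scaling 3 rose and 10 fell (median -0.14), where the median of all tested genes was -0.63 and 72% were below 0. Called were HIBADH near HOXA (-1.01 ± 0.11), the heterochromatin protein gene CBX1 near HOXB (1.30 ± 0.07) and ATF7 near HOXC (1.57 ± 0.16). The HIBADH call was lost at log2 -0.99 with DESeq2 and with RLE size factors, and CBX5 near HOXC, at 0.99 as reported, was then called higher at 1.02. With total count scaling CBX1 lost its call (log2 0.73), and 1 flanking gene was called higher and 4 lower. With SRPIN340, none of 104 tested genes of the lists of cofactors, chromatin, retinoic acid, ParaHox and axial regulators passed edgeR's adjusted p. Of these, 14 had an unadjusted p under 0.05 in edgeR, and DESeq2 passed 3 (KDM6B, STAG1 and ALDH1A2). For the unadjusted p and DESeq2 the shares of all tested genes are not given. One flanking gene, HNRNPA3 near HOXD, fell with SRPIN340 (log2 -0.36).

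**Figure D4:**
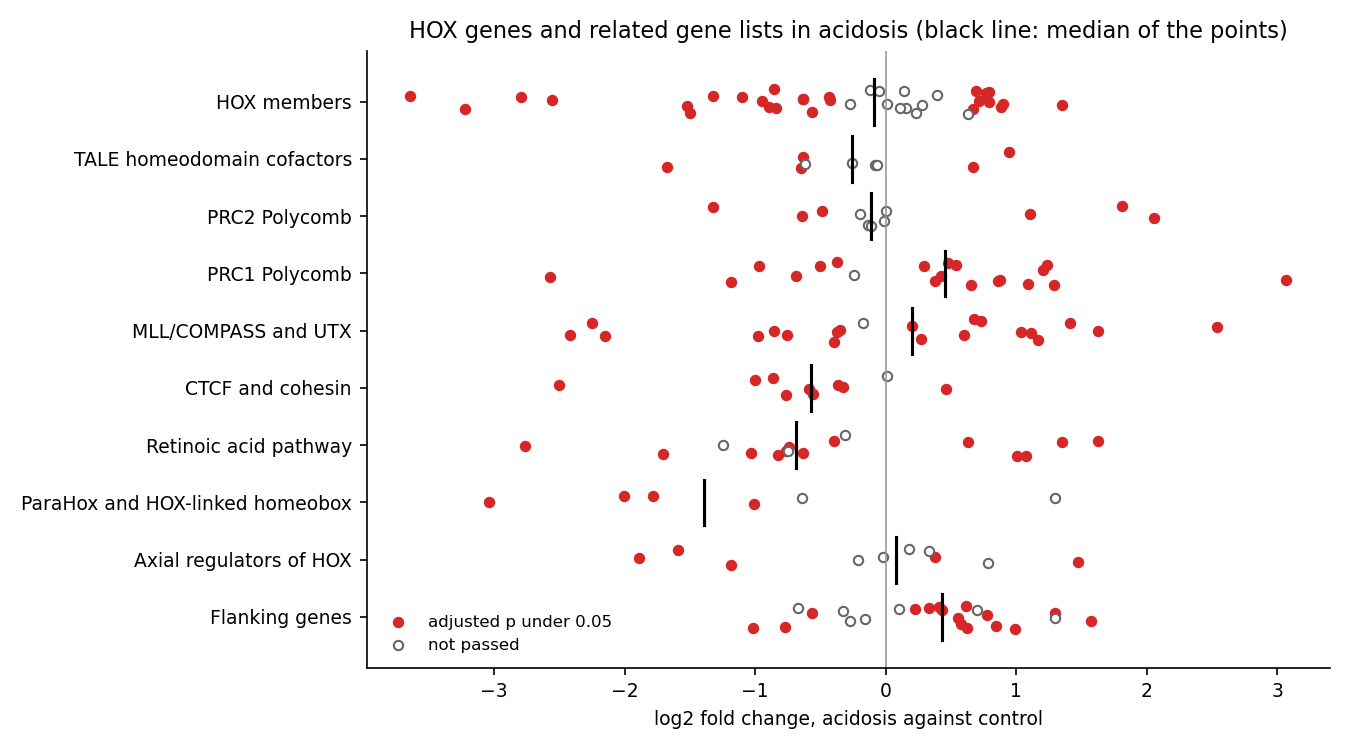
Log2 fold change in acidosis against control (x axis) of the tested HOX genes and 9 related gene lists, one point per gene, filled where the adjusted p was under 0.05, with a black line at the median of the points drawn. MEOX1, at 0 in acidosis, is not drawn, which puts the ParaHox line at -1.39, and the HOX points spread from -3.64 to 1.35 around a median of -0.09.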

How the data were processed

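HEK-293 RNA was measured in 7 samples. The authors trimmed reads (Trimmomatic 0.39, Trim Galore 0.6.6), quantified transcripts with Salmon 1.5.1 against Gencode GRCh38.p13 and summed them to genes with tximport, whose option is not given in the sources used here. The deposited table holds these estimated counts without normalization, 1 column for each sample, although the methods mention replicates of each repeat.

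After rounding, the fit used edgeR 4.0.16 (R 4.3.3, TMM, filterByExpr, quasi-likelihood test, all 7 samples in one fit), with Benjamini-Hochberg adjustment over 14863 genes. A call needed 2 limits, a log2 fold change beyond 1 in size and an adjusted p below 0.05. The standard error was taken from the test statistic. DESeq2 1.42.0 was an alternative. Symbols, lengths, coordinates and overlaps came from GENCODE 44, matched by Ensembl identifier for 19977 genes. The test was checked on simulated data, in which equal numbers of genes were raised and lowered and all genes had the same spread. Such data cannot check the scaling between acidosis and control. Replicates differed beyond counting noise, and all samples were kept. Floor statements cover counting error only, whereas the standard errors include the spread between samples.

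The members and the lists of related genes were chosen with earlier results of these data known. Members are named with values per sample for the called members and the 10 with the highest mean CPM. Of each related list, up to 3 called genes with the largest change and a mean of at least 1 CPM are named, and of the flanking genes the called ones. EZH2, EED, CTCF, MEOX1, HNRNPA3, STAG1, ALDH1A2, GBX1, GBX2, EVX2, CBX5 and the marker genes named fall outside this rule and were chosen after their values were seen. Results for some genes, among them 1 member, are not reported here, although they stay in the counts. Alternatives were DESeq2, size factors, total counts, no filter, no fold limit, only the groups compared, a replicate block and leaving out each sample.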

Additional observations from a re-analysis of the deposited data

How the results depend on the processing

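Depth limits HOXB1, HOXC5, HOXC12 and HOXD12, and 2 control samples limit every contrast with control. Leaving out 1 of 2 samples leaves an arm of 1, assumed to vary like the other groups. No pairing by replicate number was seen (correlation of deviations -0.115 to 0.063 between same-numbered samples). This cannot show that the samples were unpaired, since in groups of 2 the deviations mirror each other. With the replicate block 10 members rose and 13 fell in acidosis, 1 was called higher and 8 lower, HOXD12 lost its call (log2 -2.34) and HOXA7 gained one (-1.33), and the SRPIN340 calls over all genes went from 19 to 5 higher. DESeq2 and RLE size factors gave the same counts of called members in acidosis, 1 higher and 8 lower.

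With total count scaling, members called in acidosis against control went from 1 to 0 higher and from 8 to 16 lower, and against SRPIN340 from 6 to 0 and from 7 to 13. Over all genes the counts went to 815 higher and 5202 lower, and to 775 and 5505 against SRPIN340. This scaling moves all genes by about the same amount. With no fold limit 10 members were higher and 17 lower in acidosis, 2 lower with SRPIN340, and 13 higher and 13 lower between the treatments, and over all genes 4836 and 5081, 114 and 228, and 4882 and 5202. Fitting only the groups compared gave 33 genes higher with SRPIN340. Leaving out 1 sample gave 3 to 30 genes higher and 8 to 36 lower with SRPIN340, with 3 and 8 without SRPIN340 replicate 1, 6 and 18 without SRPIN340 replicate 2, 9 higher without control replicate 1, 3 higher without control replicate 2 and 30 higher without acidosis replicate 2.

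Signs turned only for values that had not passed. In acidosis, total count scaling gave log2 -0.18 for HOXA2, -0.57 for HOXA4, -0.42 for HOXA10, -0.29 for HOXB8, -0.34 for HOXD9 and -0.47 for HOXD13, and HOXA4, HOXA10 and HOXD13 then had an adjusted p under 0.05. The block gave -0.017 for HOXA4 and -0.023 for HOXD13. HOXA4 was at -0.020 with no filter and -0.016 with only the groups compared. Leaving out 1 sample moved HOXA4 between -0.079 and 0.075, HOXA5 between -0.19 and 0.045 and HOXD13 between -0.020 and 0.18. With SRPIN340, HOXC12 was at -0.0034 with DESeq2, -0.0034 with RLE size factors and -0.0031 with the block, and HOXD11 at 0.037 with total counts. Leaving out 1 sample moved HOXA5 between -0.18 and 0.013, HOXA6 between -0.33 and 0.030, HOXB13 between -0.30 and 0.021, HOXC5 between -1.28 and 0.40, HOXC10 between -0.19 and 0.035, HOXC11 between -0.088 and 0.34, HOXC12 between -0.18 and 0.21, HOXD3 between -0.18 and 0.063, HOXD4 between -0.34 and 0.086 and HOXD11 between -0.15 and 0.16. The cause was not tested.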
